A study of Homo sapiens with 6 samples.

Results

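The 10 transcripts described here encode negative regulators of mitogen-activated protein (MAP) kinase signaling, 5 dual-specificity phosphatases (DUSP1, DUSP4, DUSP5, DUSP6 and DUSP10), 3 Sprouty proteins (SPRY1, SPRY2 and SPRY4) and 2 SPRED proteins (SPRED1 and SPRED2). They were found by symbol among the 30267 genes of the deposited table, and all 10 had enough reads to be among the 16554 genes tested. The table held 6 RNA-seq libraries of SW839, an established renal cell carcinoma (RCC) line, of which 3 came from cells carrying a hairpin against the E3 ubiquitin ligase gene RNF25 (shRNF25) and 3 from cells carrying the pLKO vector (shControl). Both groups were made by lentiviral infection and puromycin selection according to the study's methods, no ligand or inhibitor is named for either, and the knockdown group is known by a single hairpin name. The treatment text of every sample speaks of the RNF25 plasmid, so the groups rest on the titles and genotype labels. The labels call the libraries biological triplicates without naming separate cultures, so the p-values measure the spread between these libraries.

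MAP kinase phosphatases remove phosphate from the threonine and tyrosine that activate a MAP kinase. DUSP1, DUSP4 and DUSP5 act in the nucleus, DUSP6 holds ERK in check in the cytoplasm, and DUSP10 prefers the stress kinases JNK and p38. Sprouty proteins interrupt the signal between a receptor tyrosine kinase and RAF, and SPRED proteins bring the RAS inactivator neurofibromin (NF1) to the membrane. Many of these genes are themselves transcribed when ERK is active, which closes a negative feedback loop, and their mRNAs are often read as a trace of ERK output.

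The promoter windows of the 2 members with the largest differences, SPRY4 and DUSP10, and of DUSP1, the one member whose window held a full cAMP response element (CRE), are shown because they stand for the clearest rise, the clearest fall and the clearest motif. Each is the 250 bases before a RefSeq transcription start (GRCh38.p14), written 5′ to 3′ on the gene's strand, and capitals mark matches to the motifs searched. The SPRY4 and DUSP10 starts lie inside the genes as GENCODE 29 draws them, and counts per gene do not tell which start was used.
SPRY4, chr5:142324248-142324497, minus strand: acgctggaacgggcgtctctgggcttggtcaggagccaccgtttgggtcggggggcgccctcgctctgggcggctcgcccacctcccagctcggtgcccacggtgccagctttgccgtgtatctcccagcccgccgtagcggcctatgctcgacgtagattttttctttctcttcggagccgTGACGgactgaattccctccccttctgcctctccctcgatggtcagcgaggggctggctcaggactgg
DUSP10, chr1:221742090-221742339, minus strand: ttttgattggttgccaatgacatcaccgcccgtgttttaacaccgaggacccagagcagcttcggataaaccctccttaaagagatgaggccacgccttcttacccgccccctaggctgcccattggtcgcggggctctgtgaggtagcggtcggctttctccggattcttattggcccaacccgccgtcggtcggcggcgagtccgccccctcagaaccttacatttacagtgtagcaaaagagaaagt
DUSP1, chr5:172771196-172771445, minus strand: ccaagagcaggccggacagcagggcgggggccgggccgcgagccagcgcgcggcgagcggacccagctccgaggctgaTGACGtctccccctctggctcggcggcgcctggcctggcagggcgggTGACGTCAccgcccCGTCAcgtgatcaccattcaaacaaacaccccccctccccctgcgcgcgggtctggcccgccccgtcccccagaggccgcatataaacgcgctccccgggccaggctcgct

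Both strands were searched for the CRE (TGACGTCA), its core TGACG, which lies inside the full element, the AP-1 site (TGANTCA), an ETS site (CCGGAAG), the serum response element CArG box and the NF-κB consensus. RefSeq windows were found for 8 of the 10 members, 13 windows in all. The core TGACG was in 3 of them, those of DUSP1, SPRY4 and the first of SPRY2, against 21.2% of all 35116 windows in the table, and the full CRE was in that of DUSP1, against 1.65%. The ETS site was in the second window of SPRY1 (8.52% of all windows), and no AP-1 (6.57%), CArG (1.16%) or NF-κB (5.21%) match was in any of the 13. These matches describe letters, not bound sites.

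Between 18647460 and 19943154 reads were counted on genes per library, and each member had 175 to 8575 reads in each library. For 6 of the 10 members the SD over the shRNF25 libraries was below the square root of the mean, the error that counting alone gives, and for 2 (DUSP10 and SPRED1) this held in shControl too. An SD of 3 values often falls below that error by sampling alone, and the share over all tested genes was not counted. The smallest SDs given here therefore understate the error. RNF25, the target of the hairpin, had a normalized count of 588.1 ± 92.0 (SD, n = 3) in the controls, which fell to 241.6 ± 25.7 (SD, n = 3) in the knockdown (adjusted p = 0.000585 from limma). STK36, a protein-coding gene on the other strand, covers 11.2% of the exon bases of RNF25. Its effect on the count of RNF25 was not tested. The epithelial keratins KRT8, KRT18 and KRT19 were abundant in both groups, while CA9, a marker of clear cell RCC, was low. The summed level of the 7 renal carcinoma markers present lay between 71129 and 90142 in shControl and between 80711 and 84454 in shRNF25, that of 8 fibroblast markers between 997.4 and 1296 over all libraries, that of 5 leukocyte markers between 31.3 and 46.2 in shControl and between 51.5 and 72.0 in shRNF25, and that of 5 endothelial markers, KDR among them, between 495.0 and 698.3. DCN and COL1A2 (fibroblast) and CD3E (leukocyte) had 3 reads or fewer in every library, and PECAM1 made up most of the endothelial sum. The 3 keratins made up most of the renal carcinoma sum, and COL1A1 most of the fibroblast sum. PAX8, of the same renal list, had means of 127.4 in shControl and 94.0 in shRNF25, and PAX2 and CDH16 were listed but had no values. Single markers differed under these sums, without overlap between the groups, with means of 5.69 in shControl and 162.3 in shRNF25 for COL3A1, 124.7 and 5.89 for CDH5, 355.4 and 831.9 for VIM and 24.5 and 84.5 for KDR. These 4 were named after their values had been seen. Others without overlap included KRT8 and ITGAM, higher in shRNF25, and KRT19, EPCAM, PAX8 and COL1A1, lower. Over all tested genes 42.5% showed no overlap. The part of fibroblasts, leukocytes and endothelial cells in the results was not tested. The shControl libraries varied more than the shRNF25 libraries, with a median coefficient of variation over tested genes of 18.2% against 6.70%, and the library names of the controls differ in form from each other. Over all tested genes shControl replicate 1 stood furthest from the other controls. Its correlation was 0.981 with replicate 2 and 0.976 with replicate 3, against 0.987 between replicates 2 and 3. The chi-square per gene of the reads was 140.5, 133.2 and 27.2 for these pairs. Any batch that ran with the groups and the knockdown itself cannot be told apart, and in bulk RNA fewer cells with a transcript cannot be told apart from less of it per cell.

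The question was whether the feedback inhibitors of MAP kinase signaling changed when RNF25 was knocked down. They did not move as one group. Of the 10 members, SPRY4, SPRY1, SPRED2 and DUSP6 were higher in shRNF25 with an adjusted p below 0.05 and DUSP10 was lower, and the other 5 (DUSP1, DUSP4, DUSP5, SPRY2 and SPRED1) did not pass. When the study's criterion of a fold change of at least 1.5 was added, SPRY4 and SPRY1 were called higher and DUSP10 lower. Over all tested genes, 8.65% were called higher and 7.1% lower by both criteria, and 10.5% were higher and 10.8% lower by the adjusted p alone (21.3% in either direction). The median log2 fold change of the members was 0.19, against -0.01 over all tested genes. The fold changes that follow are on the log2(normalized count + 1) scale and p-values from limma were adjusted over all 16554 genes by the Benjamini-Hochberg method.

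**Figure D1:**
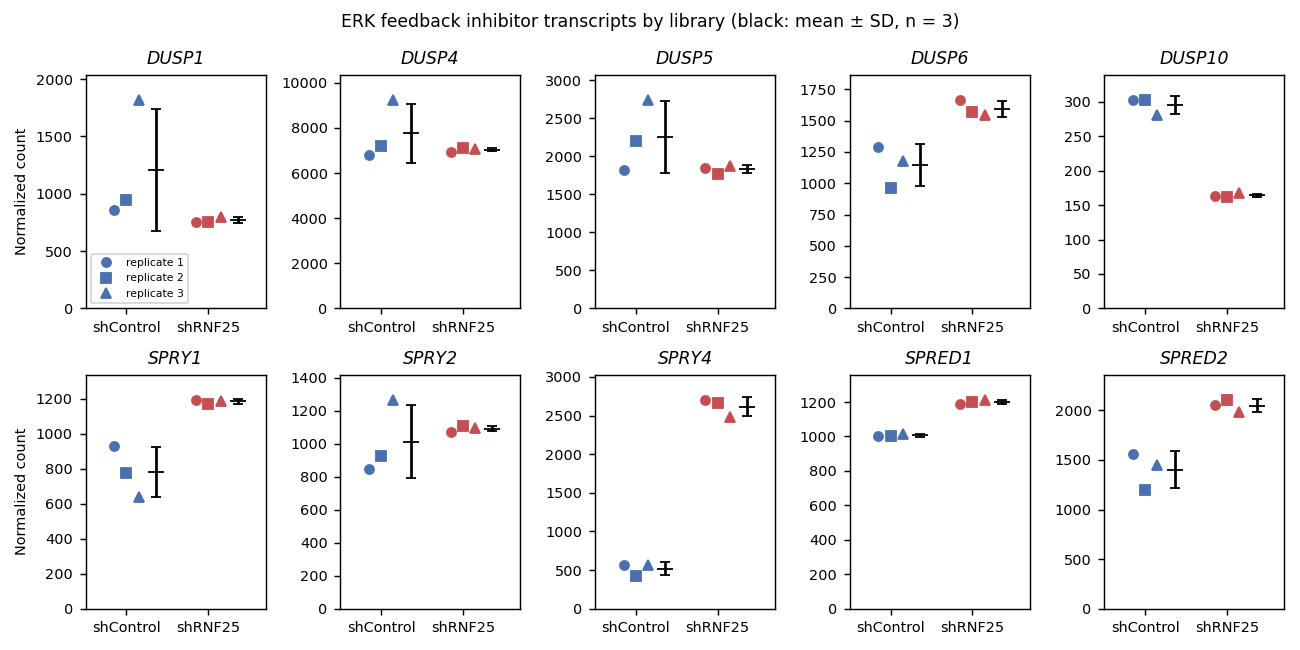
Normalized count (vertical axis, from 0) of each of the 10 genes in the 3 shControl (blue) and 3 shRNF25 (red) libraries, with symbols for the replicates and the mean ± SD (n = 3) in black. SPRY4 lies between 421.7 and 571.5 in shControl and between 2479 and 2703 in shRNF25, and DUSP1, DUSP4, DUSP5 and SPRY2 have their highest value in shControl replicate 3.

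SPRY4 was the member that changed most. It encodes a Sprouty protein that restrains receptor signaling upstream of ERK, and in GENCODE 29 (GRCh38) it lies on chromosome 5 from 142310427 to 142326455 on the minus strand. In replicates 1, 2 and 3 of shControl its normalized count was 571.5, 421.7 and 567.7, and in those of shRNF25 it was 2703, 2668 and 2479. The lowest knockdown library was thus far above the highest control library. SPRY4 rose by 2.34 on the log2 scale (standard error 0.137, adjusted p = 1.67e-05 from limma), or 5.07-fold with a 95% interval of 4.09 to 6.28. It ranked 145 of the 16554 tested genes from the highest log2 fold change down. The exact permutation test of the 6 values gave p = 0.1 (two-sided), the smallest that 3 libraries against 3 allow, as it did for each member without overlap between the groups. The antisense gene SPRY4-AS1 overlaps SPRY4 in the annotation but shares no exon base with it, and had 10 to 31 reads per library (log2 fold change 0.32, adjusted p = 0.575 from limma), against 411 to 2966 reads for SPRY4.

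SPRY1, on chromosome 4 from 123396795 to 123403760, also rose. Its normalized count was 928.6, 773.6 and 641.1 in shControl and 1195, 1172 and 1191 in shRNF25, without overlap between the groups. This was a rise of 0.62 on the log2 scale (standard error 0.141, adjusted p = 0.0143 from limma), or 1.53-fold, just past the fold criterion. The call rested on having all the knockdown libraries, because the adjusted p was 0.0706, 0.0614 and 0.0665 without shRNF25 replicate 1, 2 or 3. The log2 fold change in those fits was 0.61, 0.63 and 0.61, and it was 0.48 without shControl replicate 3. SPRY2, which also binds the receptor ubiquitin ligase CBL, had 843.5, 927.5 and 1265 in shControl and 1072, 1106 and 1094 in shRNF25. The groups overlapped, since shControl replicate 3 was above every knockdown library, and the log2 fold change was 0.13 with a 95% interval of -0.21 to 0.47 (adjusted p = 0.574 from limma). A change of SPRY2 as large as that of SPRY4 lies outside this interval.

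The makeup of the Sprouty transcripts changed with these differences. Levels of different genes were compared as normalized count per kilobase of annotated exon, a scale that takes the whole exon length of GENCODE 29 and not the isoforms in use. In shControl SPRY4 had the lowest level of all 10 members, 79.3 ± 13.0 (SD, n = 3), and made up 13.0% ± 1.58 (SD, n = 3) of the summed level of SPRY1, SPRY2 and SPRY4, in which SPRY2 was the largest part at 54.4% ± 8.15 (SD, n = 3). In shRNF25 the level of SPRY4 was 398.6 ± 18.3 (SD, n = 3) and its share 37.7% ± 1.18 (SD, n = 3), ahead of SPRY2 at 34.0% ± 0.803 (SD, n = 3). The share of SPRY4 lay between 11.4% and 14.5% in the control libraries and between 36.4% and 38.6% in the knockdown libraries. The sum went from between 564.8 and 664.6 to between 1038 and 1066 per kilobase.

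**Figure D2:**
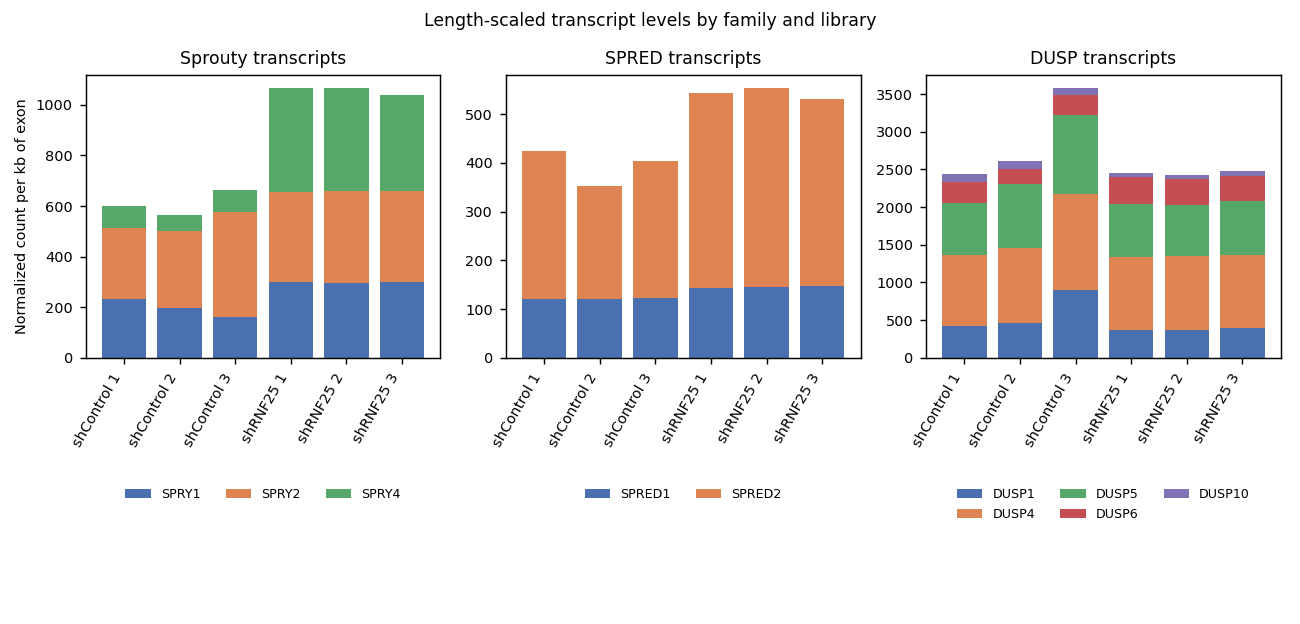
Normalized count per kilobase of annotated exon (vertical axis, from 0) stacked by gene for the Sprouty, SPRED and DUSP members in each of the 6 libraries. The Sprouty sum lies between 564.8 and 664.6 in shControl and between 1038 and 1066 in shRNF25, and the DUSP sum is highest in shControl replicate 3, at 3580.

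The SPRED genes code for membrane proteins that act on RAS through neurofibromin. SPRED2, on chromosome 2 from 65310851 to 65432637, had a normalized count of 1560, 1193 and 1448 in shControl and of 2057, 2105 and 1980 in shRNF25. All the knockdown values were above all control values. SPRED2 rose by 0.56 on the log2 scale (standard error 0.121, adjusted p = 0.0117 from limma), or 1.47-fold, which fell short of the 1.5-fold criterion, and the adjusted p was 0.0636, 0.0670 and 0.0523 without shRNF25 replicate 1, 2 or 3. The log2 fold change in those fits was 0.55, 0.54 and 0.58. SPRED2 passed both criteria after quantile normalization (0.65), after rescaling on the median ratio (0.62) and without shControl replicate 1 (0.64). SPRED1, on chromosome 15 from 38252326 to 38357249, had 1002, 1003 and 1015 in shControl and 1190, 1200 and 1212 in shRNF25. These groups did not overlap either and the spread within each was under 1% of its mean, yet the log2 fold change of 0.25 (95% interval 0.04 to 0.47) had an adjusted p of 0.0918 from limma. By its construction limma takes part of a gene's variance from other genes at its level. The adjusted p of SPRED1 was 0.0337 after quantile normalization, 0.0427 after rescaling on the median ratio and 0.0219 without shControl replicate 1. Of the 50-base words of the longest SPRED1 transcript, 1.44% also occur in transcripts of other genes, and for the other 9 members none do.

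DUSP10 was the one member that was lower in shRNF25 with an adjusted p below 0.05. The gene, which encodes a phosphatase of JNK and p38, spans 221701424 to 221742176 of chromosome 1. It was measured at normalized counts of 302.9, 302.7 and 280.6 in shControl and 163.1, 161.6 and 166.8 in shRNF25, so that the knockdown mean was 55.5% of the control mean. The SD within each group was below the square root of its mean, and the groups were far apart. Its log2 fold change of -0.85 had a standard error of 0.124 (adjusted p = 0.00184 from limma), and the adjusted p stayed below 0.05 under all 16 alternative settings, as that of SPRY4 did. Per kilobase of exon, DUSP10 was next to the lowest of the 10 members in shControl, at 101.4 ± 4.39 (SD, n = 3), and the lowest in shRNF25, at 56.2 ± 0.918 (SD, n = 3).

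DUSP16 and DUSP8 encode further phosphatases that prefer JNK or p38, and both were in the list of remaining family members. DUSP16 had a normalized count of 1113, 1136 and 1190 in shControl and of 661.5, 672.3 and 637.7 in shRNF25. It fell by 0.80 on the log2 scale (standard error 0.101, adjusted p = 0.000869 from limma), and its 95% interval overlapped that of DUSP10. DUSP8 had 528.4, 440.2 and 514.8 in shControl against 365.4, 376.8 and 355.5 in shRNF25, a log2 fold change of -0.43 (adjusted p = 0.0346 from limma) that was under the fold criterion. Its adjusted p was 0.0551 after quantile normalization, 0.0640 after rescaling, 0.0522 with no filter, 0.0594 without shControl replicate 3, and 0.130, 0.116 and 0.150 without shRNF25 replicate 1, 2 or 3. For each of these 3 phosphatases every knockdown library was below every control library, which held for 21.8% of all tested genes. The grouping of the 3 by substrate was made after their values had been seen. Whether it holds every phosphatase of JNK and p38 was not checked. DUSP1, DUSP4 and DUSP9 are outside it, and none had an adjusted p below 0.05. Of the 11 JNK and p38 cascade genes tested, 1 was called, where 15.7% of all tested genes were called in either direction, and the median of the list was -0.05. It was MAP2K6, a kinase that activates p38, at 0.71 higher on the log2 scale (adjusted p = 0.0139 from limma).

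DUSP6, the cytoplasmic ERK phosphatase, rose by less than the fold criterion. The gene is at 89347232 to 89353271 of chromosome 12, and the libraries gave 1291, 959.3 and 1182 in shControl and 1668, 1569 and 1546 in shRNF25. The groups did not overlap, and the rise was 0.49 on the log2 scale (standard error 0.128, adjusted p = 0.0255 from limma), or 1.40-fold. Without shControl replicate 2, the lowest control, the log2 fold change was 0.37 (adjusted p = 0.0566). Without shRNF25 replicate 1, 2 or 3 it was 0.46, 0.50 or 0.51 and the adjusted p was 0.121, 0.0938 or 0.0912. An antisense gene, AC024909.2, covers 40.5% of the exon bases of DUSP6. It had no values of its own in the deposited counts. Whether reads were counted by strand is not given in the sources used here, so part of the count of DUSP6 could be antisense.

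**Figure D3:**
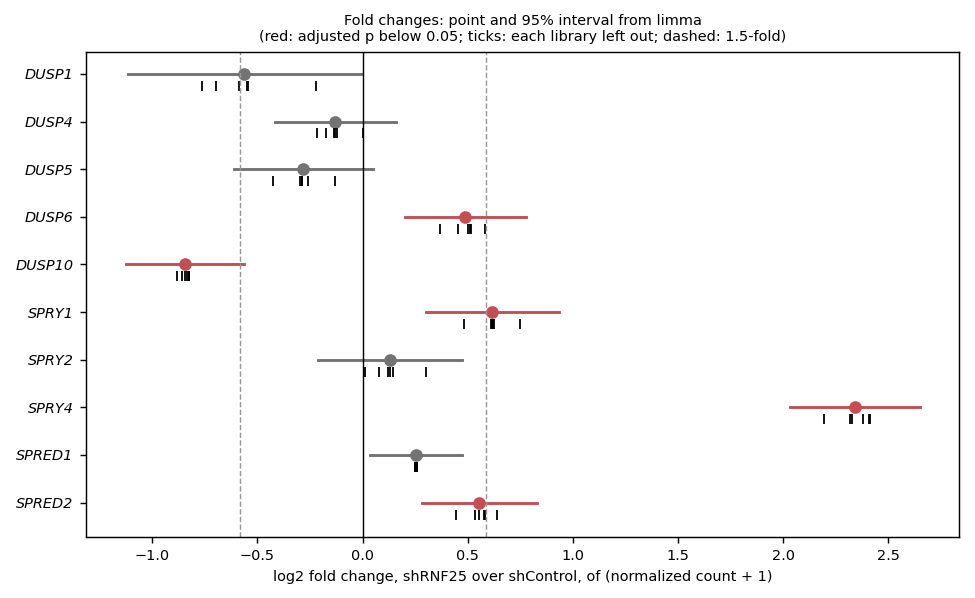
The log2 fold change of each member (horizontal axis, shRNF25 over shControl, on the log2(normalized count + 1) scale) with its 95% interval from limma. Red marks an adjusted p below 0.05, black ticks give the estimate with each library left out in turn, and dashed lines mark a 1.5-fold change. SPRY4 stands apart at 2.34, DUSP10 lies at -0.85, and the ticks of DUSP1 spread from -0.77 to -0.22.

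The nuclear, rapidly inducible phosphatases DUSP1, DUSP4 and DUSP5 did not pass the test, and their controls disagreed. DUSP1, on chromosome 5 from 172768090 to 172771195, had a normalized count of 858.9, 945.0 and 1822 in shControl and of 755.4, 758.2 and 801.6 in shRNF25. The knockdown values lay below the control values without overlap, but shControl replicate 3 was far above the other controls. Its log2 fold change was -0.56 (95% interval -1.11 to -0.01, adjusted p = 0.135 from limma). It was -0.22 without shControl replicate 3 and -0.77 without shControl replicate 1 (adjusted p = 0.0227), and with library weights estimated by group the adjusted p was 0.0395. The difference at DUSP1 therefore rested on which control libraries were used.

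DUSP5, an ERK-specific nuclear phosphatase on chromosome 10 from 110497838 to 110511544, had 1816, 2203 and 2748 in shControl and 1850, 1770 and 1870 in shRNF25. The groups overlapped, and the log2 fold change was -0.28 (95% interval -0.61 to 0.05, adjusted p = 0.207 from limma), or -0.43 without shControl replicate 1 (adjusted p = 0.00863) and -0.13 without shControl replicate 3. DUSP4, on chromosome 8 from 29333064 to 29350668, had 6815, 7214 and 9255 in shControl and 6948, 7098 and 7055 in shRNF25. The knockdown libraries lay between the controls, and the log2 fold change of -0.13 (95% interval -0.42 to 0.16, adjusted p = 0.509 from limma) had the opposite sign after quantile normalization, at 0.07.

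The immediate-early transcripts, which growth factors and stress induce within minutes, were also uneven among the controls. FOS was at 157.0, 181.6 and 564.5 in shControl, FOSB at 101.7, 139.5 and 528.8, and EGR1, named after its values had been seen, at 684.3, 284.2 and 1366. For each of these shControl replicate 3 was the highest control, as for DUSP1, DUSP4, DUSP5, SPRY2 and, by little, SPRED1. FOSL1, named after its values had been seen, IER3 and MYC were instead highest in shControl replicate 1, at 17279, 14971 and 7364. In shRNF25, FOS was at 1883, 2088 and 2087, FOSB at 1013, 1242 and 1110, and EGR1 at 1187, 1237 and 1256. FOS and FOSB were thus above every control while DUSP1 was below every control in the same libraries. EGR1 overlapped between the groups. The part of shControl replicate 3 in the values of DUSP1, DUSP4, DUSP5 and SPRY2 is given by the fits without it, whose log2 fold changes were -0.22, 0.0044, -0.13 and 0.30, none with an adjusted p below 0.05.

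**Figure D4:**
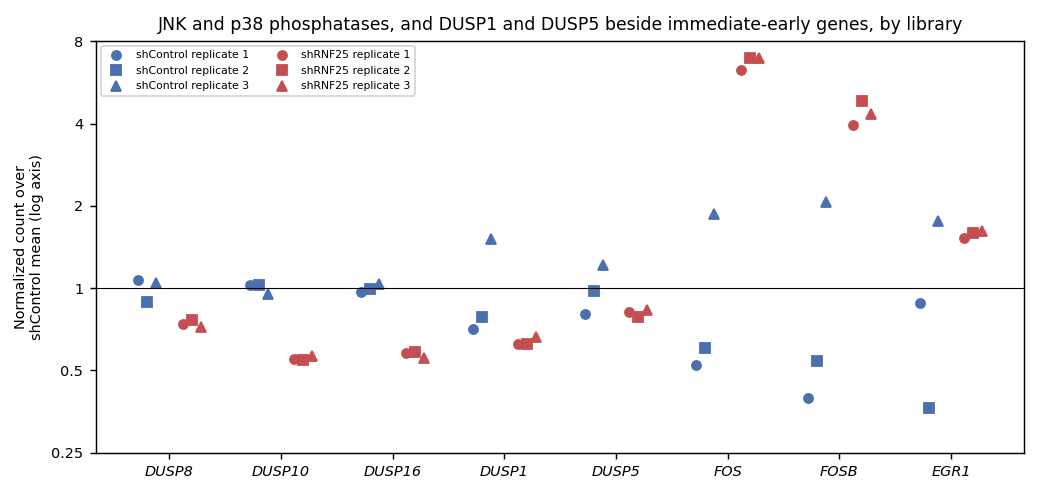
Normalized count of each library divided by the shControl mean of the gene (vertical log axis, base 2) for the JNK and p38 phosphatases DUSP8, DUSP10 and DUSP16, for DUSP1 and DUSP5, and for the immediate-early genes FOS, FOSB and EGR1. The phosphatases on the left separate the groups in all 6 libraries, and the blue triangle of shControl replicate 3 stands above the other controls from DUSP1 on.

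In shControl the order of the members by level per kilobase ran from DUSP4 (1069 ± 180.3, SD, n = 3) through DUSP5 (862.6 ± 179.0), DUSP1 (598.6 ± 263.9), SPRY2 (333.1 ± 73.4), SPRED2 (271.7 ± 36.5), DUSP6 (247.0 ± 36.5), SPRY1 (197.1 ± 36.3), SPRED1 (121.9 ± 0.849) and DUSP10 to SPRY4. The libraries of neighbors in this order overlapped from DUSP4 to DUSP1 and from SPRY2 to SPRY1. In shRNF25 DUSP4 (969.2 ± 10.7, SD, n = 3) and DUSP5 (699.8 ± 20.2) stayed at the top and SPRY4 came next, overlapping SPRED2 (397.2 ± 12.2), which overlapped DUSP1 (382.2 ± 12.8). DUSP1, DUSP4 and DUSP5 together made up most of the DUSP level in every library. For 9 of the 10 members, SPRED1 being the exception, the coefficient of variation was smaller in shRNF25, where it lay between 0.938% and 4.59%, than in shControl, where it lay between 0.697% and 44.1%. For 7 of the 10 members no library of one group lay within the range of the other, 5 higher and 2 lower in shRNF25, while 42.5% of all tested genes showed no overlap, 20.7% higher and 21.8% lower.

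Of the remaining members of these families, 7 genes were listed and 6 tested, with SPRY3 too low to test. DUSP16 was called lower and none was called higher, which is 16.7% and 0% of the 6 tested. Over all tested genes 7.1% were called lower and 8.65% higher. DUSP7 (log2 fold change 0.02), DUSP9 (-0.10), DUSP2 (-0.28) and SPRED3 (-0.21) had adjusted p-values of at least 0.435 from limma. DUSP7 and DUSP9 encode the closest relatives of DUSP6.

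Of 17 genes from RAS through RAF, MEK and ERK to the RSK kinases, all tested, 1 was called higher and 1 lower, where 15.7% of all tested genes were called in either direction, and the list median was -0.08 on the log2 scale. By the adjusted p alone 1 was higher and 3 lower, against 10.5% and 10.8% of all tested genes. The lower ones included MAPK3, which encodes ERK1 (-0.49), and RPS6KA3 (-0.56), each with an adjusted p of 0.0193 from limma and named after their values had been seen. KSR1, a scaffold of RAF, MEK and ERK, fell from 239.7 ± 17.9 (SD, n = 3) to 149.3 ± 19.3 (SD, n = 3) (log2 fold change -0.69, adjusted p = 0.0121 from limma). Its paralog KSR2 went the other way, from 181.0 ± 31.9 (SD, n = 3) to 277.5 ± 20.3 (SD, n = 3) (0.63, adjusted p = 0.0217 from limma). Among 18 adaptors and RAS regulators, which include the SPRED partner NF1 and the Sprouty partners GRB2 and CBL, the GTPase-activating gene RASA2 was called lower (-0.86, adjusted p = 0.0104 from limma), none was called higher and the median was -0.10. The called shares were 5.56% lower and 0% higher, against 7.1% and 8.65% of all tested genes. By the adjusted p alone 3 of these 18 were lower and 0 higher, against 10.8% and 10.5% of all tested genes. Besides RASA2 they were SHC1 (-0.56, adjusted p = 0.00885 from limma) and CBL (-0.38, adjusted p = 0.0386 from limma), named after their values had been seen. The calls of KSR1, KSR2, MAP2K6 and RASA2 depended on the number of libraries. The adjusted p was 0.0501 and 0.0723 for KSR1 without shRNF25 replicate 2 or 3, 0.0732, 0.0815 and 0.111 for KSR2 without shRNF25 replicate 1, 2 or 3, and 0.0644 for KSR2 without shControl replicate 2. It was 0.0845 and 0.0681 for MAP2K6 without shRNF25 replicate 1 or 2, and 0.0562 and 0.0537 for RASA2 without shRNF25 replicate 1 or 3.

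Upstream of the cascade, EGFR and its ligands HBEGF and AREG were lower. EGFR, the receptor of epidermal growth factor, fell from 14315 ± 2579 (SD, n = 3) normalized counts to 6945 ± 213.6 (SD, n = 3) (log2 fold change -1.03, adjusted p = 0.00132 from limma). HBEGF fell from 2524 ± 366.7 (SD, n = 3) to 571.9 ± 36.4 (SD, n = 3) (-2.13, adjusted p = 1.73e-05 from limma) and AREG from 3350 ± 350.8 (SD, n = 3) to 1492 ± 75.7 (SD, n = 3) (-1.16). TGFA, EREG, BTC and EGF, named after their values had been seen, were not called. Of 9 receptor tyrosine kinases tested, FGFR4 was also called lower (-0.65, with an adjusted p of 0.0749 and 0.0674 without shRNF25 replicate 1 or 2) and KDR, at 24.5 ± 6.48 (SD, n = 3) against 84.5 ± 3.60 (SD, n = 3), higher (1.78). The receptors called lower, EGFR among them, were 22.2% of those tested, and those called higher 11.1%. Of 12 ligands tested, 4 were called lower and 1 higher, or 33.3% and 8.33%. Over all tested genes 7.1% were called lower and 8.65% higher. VEGFA, the angiogenic ligand of KDR, was lower at -1.58 and FGF2 was higher at 1.15, and PDGFB, outside the rule for named genes, was the fourth lower ligand at -0.63 (adjusted p = 0.0356 from limma).

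Transcripts that are widely used as ERK readouts did not share a direction. Of 14 tested, 3 were called higher and 2 lower. That is 21.4% and 14.3%, against 8.65% and 7.1% of all tested genes. The median log2 fold change was 0.14. FOS (2.99, adjusted p = 0.00114 from limma, or 3.57 without shControl replicate 3), FOSB (2.51, or 3.22 without shControl replicate 3) and the ETS factor gene ETV1 (0.80, with an adjusted p of 0.0524 and 0.0510 without shRNF25 replicate 1 or 2) rose. IER3 fell from 12681 ± 2319 (SD, n = 3) to 3014 ± 179.5 (SD, n = 3) (-2.06, adjusted p = 3.37e-05 from limma), and MYC, outside the rule for named genes, fell by 0.75 on the log2 scale. The ETS genes ETV4 (0.06) and ETV5 (0.04) and the cyclin gene CCND1 (0.08), which are also read as ERK targets and were named after their values had been seen, had adjusted p-values of at least 0.601.

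**Figure D5:**
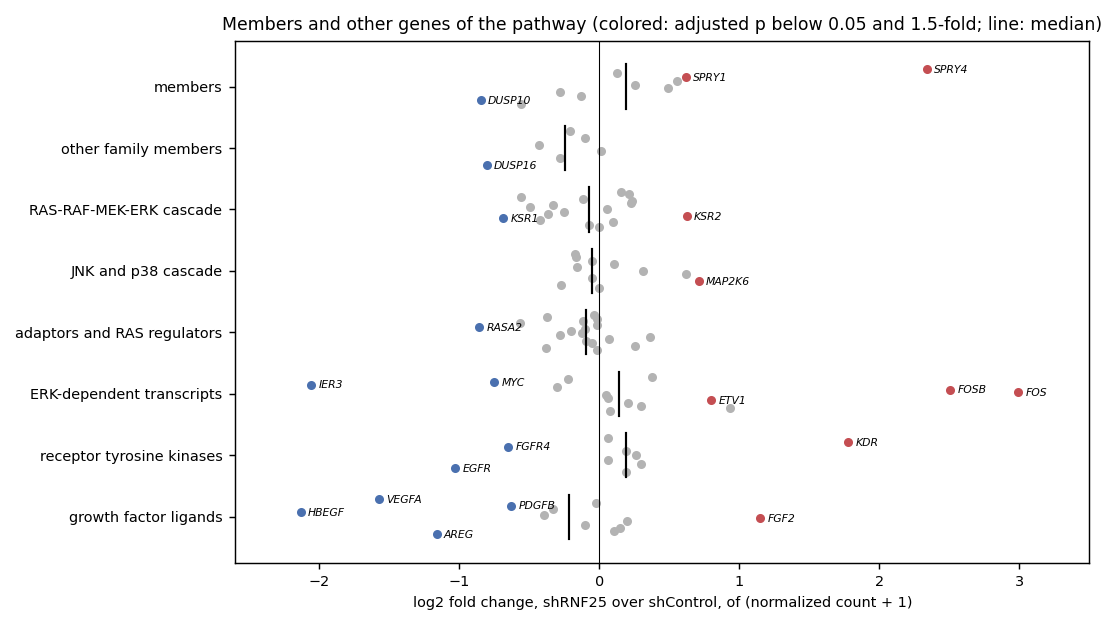
The log2 fold change (horizontal axis, shRNF25 over shControl) of the 10 members and of the tested genes of 7 other lists of the pathway, 1 point per gene. Named points were called by an adjusted p below 0.05 and a 1.5-fold change, higher in red and lower in blue, and black lines mark the list medians, which lie between -0.24 and 0.19.

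Over the 87 genes tested in these 7 lists, 11 were called lower and 7 higher. That is 12.6% and 8.05%, against 7.1% and 8.65% of all tested genes, and the median log2 fold change of the 87 was -0.05.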

How the data were processed

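Bulk RNA-seq libraries of SW839 cells (3 shControl, 3 shRNF25) were compared. The authors deposited normalized counts per gene symbol, a signal in which each library's read counts had been divided by 1 scaling factor. The submitters' processing notes name fastp, HISAT2, HTSeq and GRCh38, and the study's methods describe ribosomal RNA depletion, a stranded kit and DESeq2. Annotation and strand setting of the counting are not given in the sources used here, and reads on both strands can then not be separated for overlapping genes. Values were whole multiples of a step, which gave back whole reads for 100% of them (tolerance 0.001 reads), and the factors equaled median-of-ratios size factors.

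The deposited scaling was kept. The 16554 genes that reached 10 in 3 or more libraries were fitted as log2(value + 1) with limma 3.58.1 (trend, no covariates) in R 4.3.3. A call needed an adjusted p below 0.05 and a change of 1.5-fold or more. A two-sided exact permutation test was added for members. Alternatives were pseudocounts of 0.5 and 5, no filter, a filter at 50, quantile normalization, median-ratio rescaling over genes whose mean reached 100, edgeR 4.0.16 and DESeq2 1.42.0 on the recovered reads, library weights by group, the replicate number as a block, and each library left out. The fits were tested on simulated data in which both groups had the same spread. That test therefore does not cover the unequal spread of the real groups. Replicate pairs within a group differed by more than counting noise, so all 6 libraries were kept. The members and lists were chosen with earlier results of these data known. Named genes were RNF25, the members, the remaining family members, and the 4 largest called changes without overlap per other list, and other names are marked. Positions and exon lengths came from GENCODE 29 by symbol, and promoters from RefSeq (GRCh38.p14). Intervals are 95% limma intervals.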

Additional observations from a re-analysis of the deposited data

How the results depend on the processing

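With each library left out in turn, 1 to 2 members were called lower and 1 to 3 higher, and of the pathway-list genes 8 to 13 were called lower and 4 to 7 higher. When 2-fold was required, 0 members were lower and 1 higher, with 5 pathway-list genes lower and 4 higher, and no fold limit gave 4 members higher. The second lower member, without shControl replicate 1, was DUSP1. SPRY1 was the call lost without shControl replicate 3 or any shRNF25 library, the latter leaving 2 libraries in that group. Over all tested genes, 1175 were called lower and 1432 higher. A filter at 50 left 898 higher, a 2-fold limit gave 513 and 893, no fold limit gave 1785 lower, and with a library left out 813 to 1269 were lower and 748 to 1725 higher, the fewest without shRNF25 replicate 1, 2 or 3 (748, 824 and 831 higher). edgeR and DESeq2 each called 1 member lower and 2 higher. Of 160 member values under the alternatives, 142 kept their sign and their side of the adjusted p threshold, 10 lost it, 6 gained it and 2 changed sign. These were DUSP4 after quantile normalization (0.0698) and without shControl replicate 3 (range over libraries left out -0.22 to 0.0044). DUSP7 ranged from -0.0842 to 0.14 and DUSP9 from -0.29 to 0.13 when libraries were left out. The cause was not tested.

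With the replicate number as a block, 1 member was called lower and 2 higher, and 1193 genes lower and 1398 higher. The labels share numbers only, and the deviations of same-numbered libraries correlated at -0.06, -0.09 and 0.05, so they were not taken as pairs, and the block changed no member's call, while DUSP8 had an adjusted p of 0.0782 under it. The log2 fold change of RNF25 stayed between -1.34 and -1.15 under all 16 alternatives, with adjusted p-values of at most 0.00663. With 3 libraries a group, a member's log2 difference was known only to about 0.2 to 0.6 on either side.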
